A study of Mus musculus with 8 samples.

Results

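A set of 10 genes that hold back inflammatory signalling once it has started were examined: Tnfaip3, Tnip1, Zfp36, Zfp36l1, Zfp36l2, Socs1, Socs3, Cish, Dusp1 and Dusp2. A chromatin loop was assigned to a gene when 1 of its 5 kb bins held the start site of the gene's canonical transcript in the GENCODE mouse annotation of GRCm39. The 10 genes, of 21751 protein-coding genes, had 219 distinct start-site loops among the 214313 distinct loops of the series. All 10 genes had a loop in at least 1 list, and 9 of them had loops in all 4 lists. Zfp36l1 was the exception, with no start-site loop in p30 UT. Of all 21751 coding genes, 10513 had a start-site loop in any list and 6331 in all 4.

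The loops came from H3K27ac HiChIP in HPC-7, a mouse haematopoietic progenitor line grown with stem cell factor. In HiChIP, DNA ends that are neighbours in nuclear space are ligated, and the ligation products are pulled down with an antibody; H3K27ac, acetylation of histone H3 at lysine K27, is found at promoters and enhancers in use. The cells carried the full-length p42 isoform of the transcription factor CEBPA or the shorter p30 isoform, and were left untreated (UT) or given lipopolysaccharide (LPS), a bacterial ligand of the receptor TLR4, at 100 ng/mL for 2 h. There were 8 libraries, 2 for each isoform and treatment. In all 4 groups the isoform was expressed ectopically as a fusion to ERT2, a receptor domain that holds its partner out of the nucleus until 4-hydroxytamoxifen is added. The methods state that cells with such fusions received this ligand on the day before an experiment, and the HiChIP labels do not mention it.

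Each group was deposited as 1 list with both replicates pooled, so no spread between replicates could be measured, and each comparison is one of pooled libraries and not of conditions. For each listed pair of bins the list gave the contacts (ligation products that join both bins), the contacts expected from distance and coverage, and the coverage of each bin (the number of reads that fall in it). A pair absent from a list has unknown contacts, and a bin absent from a list has unknown coverage. Modelled contacts ranged from 14503330 in p30 LPS to 18999991 in p42 UT, and the lists held 80489 loops (UT) and 94609 (LPS) in p30 and 158233 (UT) and 78591 (LPS) in p42. Coverage of bins with an H3K27ac peak exceeded that of other bins 3.95-fold in p30 UT, 5.70-fold in p30 LPS, 6.38-fold in p42 UT and 4.12-fold in p42 LPS. This enrichment moved in the same direction as the contacts in all 4 comparisons below, and its part in them was not tested. Counts of loops were therefore compared in lists of equal size, each list being reduced to its 78591 most significant loops by q-value, and coverage was divided by the mean coverage of the peak bins of its list. Where 4 values stand together without labels, they are UT and LPS of p30 and then UT and LPS of p42.

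Feedback inhibitors are induced or engaged by the same signals that they restrain. Tnfaip3 (A20) edits ubiquitin chains on NF-kB signalling proteins and Tnip1 helps to recruit it; the Zfp36 proteins bind AU-rich elements and speed the decay of cytokine mRNAs; the SOCS family, with Cish, restrains cytokine receptors that signal through JAK kinases and STAT factors; and Dusp1 and Dusp2 remove phosphate from MAP kinases. Several of these genes are known as immediate targets of NF-kB, of STAT factors or of CREB and AP-1.

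Promoters of 5 genes are shown: Tnfaip3, Cish and Socs3, whose start-site coverage was past 1.5-fold higher with LPS in p30, Dusp1, whose loops were most often in all 4 lists, and Tnip1, the partner of A20. The Tnip1 window lies in the bin next to the one from which the loops below were counted, and the other 4 windows lie in the counted bin. They are RefSeq windows of 300 bases, from 250 before to 50 after the RefSeq start (build GRCm38.p6), and 9 of the 10 genes were in the table; Zfp36l2 was not. Each window matched GRCm39 at 1 place, which gave the positions below. Capitals mark matches, on either strand, to AP-1 (TGANTCA), CRE (TGACGTCA), CEBP (TTGCNNAA, which includes TTGCGCAA), CEBP-ATF (TGATGCAA), STAT (TTCNNNGAA) and kappa-B motifs; the CEBP motif and its palindrome overlap by design.
Tnfaip3 promoter (chr10:18891109-18891408, minus strand): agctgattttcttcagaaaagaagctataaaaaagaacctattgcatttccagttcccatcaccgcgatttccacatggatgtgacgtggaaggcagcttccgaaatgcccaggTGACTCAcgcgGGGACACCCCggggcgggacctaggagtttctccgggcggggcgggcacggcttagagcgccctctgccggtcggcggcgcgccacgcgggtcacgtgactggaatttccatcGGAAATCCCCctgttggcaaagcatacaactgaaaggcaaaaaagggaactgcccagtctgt
Tnip1 promoter (chr11:54853717-54854016, minus strand): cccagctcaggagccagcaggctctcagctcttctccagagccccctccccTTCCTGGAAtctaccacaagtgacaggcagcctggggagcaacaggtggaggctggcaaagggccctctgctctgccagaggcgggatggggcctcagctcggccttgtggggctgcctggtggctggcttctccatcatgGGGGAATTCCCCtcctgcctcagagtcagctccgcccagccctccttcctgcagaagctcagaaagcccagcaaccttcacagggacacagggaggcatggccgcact
Cish promoter (chr9:107173608-107173907, plus strand): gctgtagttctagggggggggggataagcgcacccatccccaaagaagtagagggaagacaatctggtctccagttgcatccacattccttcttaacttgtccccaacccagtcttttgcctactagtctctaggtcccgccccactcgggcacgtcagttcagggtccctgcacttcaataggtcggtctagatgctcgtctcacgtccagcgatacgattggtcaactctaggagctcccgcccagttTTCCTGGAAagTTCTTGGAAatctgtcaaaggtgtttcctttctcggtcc
Socs3 promoter (chr11:117860143-117860442, minus strand): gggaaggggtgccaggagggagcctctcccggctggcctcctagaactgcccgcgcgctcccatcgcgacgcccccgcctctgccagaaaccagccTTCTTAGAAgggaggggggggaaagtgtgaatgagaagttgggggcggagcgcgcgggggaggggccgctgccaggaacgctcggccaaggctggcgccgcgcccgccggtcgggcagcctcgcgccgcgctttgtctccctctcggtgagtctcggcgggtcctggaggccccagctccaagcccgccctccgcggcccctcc
Dusp1 promoter (chr17:26727397-26727696, minus strand): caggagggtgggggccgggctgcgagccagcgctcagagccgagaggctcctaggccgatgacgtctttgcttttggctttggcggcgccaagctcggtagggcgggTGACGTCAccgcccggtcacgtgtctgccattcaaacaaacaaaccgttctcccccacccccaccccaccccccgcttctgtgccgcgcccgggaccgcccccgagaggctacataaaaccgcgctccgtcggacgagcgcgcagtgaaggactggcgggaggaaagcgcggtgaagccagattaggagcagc
The Tnfaip3 window held 1 AP-1 match and 2 kappa-B matches, the nearer of which ended 3 bases before the start. Tnip1 held 3 overlapping kappa-B matches in 1 stretch and a STAT match. Cish held 2 STAT matches within the first 20 bases after the start, and Socs3 held 1 STAT match. Dusp1 held a CRE match. Of the windows not shown, Zfp36 held a STAT match and Zfp36l1 an AP-1 match, and Socs1 and Dusp2 held none of these motifs. Over all 32851 windows of the table, a kappa-B match was found in 4.51%, STAT in 8.3%, AP-1 in 7.81% and CRE in 1.79%. CEBP letters were found in 10.8% of all windows and CEBP-ATF letters in 0.895%, and in none of the 9 windows of these genes. A match is a description of letters, not evidence of binding.

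For most genes the RefSeq start and the GENCODE canonical start shared a bin. Tnip1 was different: its RefSeq start lay in the bin chr11:54850001-54855000, next to the canonical bin. That neighbour had 6 loops (UT) and 5 (LPS) in p30 and 10 (UT) and 7 (LPS) in p42. The canonical start of Zfp36l1 lay 5 bases from the edge of its bin, and its RefSeq start fell in the next bin, which had 1 loop in p30 UT, 1 in p42 UT and 0 in both LPS lists. No bin of the 10 genes held the start of another protein-coding gene.

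Pooled, the loops of these genes were found in all 4 lists more often than those of coding genes at large: 86 of 219 (39.3%), against 17.7% of the 66931 distinct start-site loops of all coding genes. Pooled over the genes, the median distance was 80 kb against 50 kb, and 39.7% of loops spanned over 100 kb against 24.3%. Zfp36l2 alone gave 39 of these 87 long loops, and the medians ranged from 12.5 kb for Zfp36l1 and 20 kb for Tnip1 to 145 kb for Socs1 and 185 kb for Zfp36l2. The share in all 4 lists varied widely among the 10 genes, from 31 of 42 loops of Dusp1 and 15 of 22 of Dusp2 down to 5 of 31 of Tnfaip3, 1 of 9 of Socs1 and 0 of 2 of Zfp36l1. It lay below the 17.7% of all coding genes for Tnfaip3, Zfp36, Socs1 and Zfp36l1. Of the 219 partner bins, 18 held the start of another protein-coding gene.

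**Figure D1:**
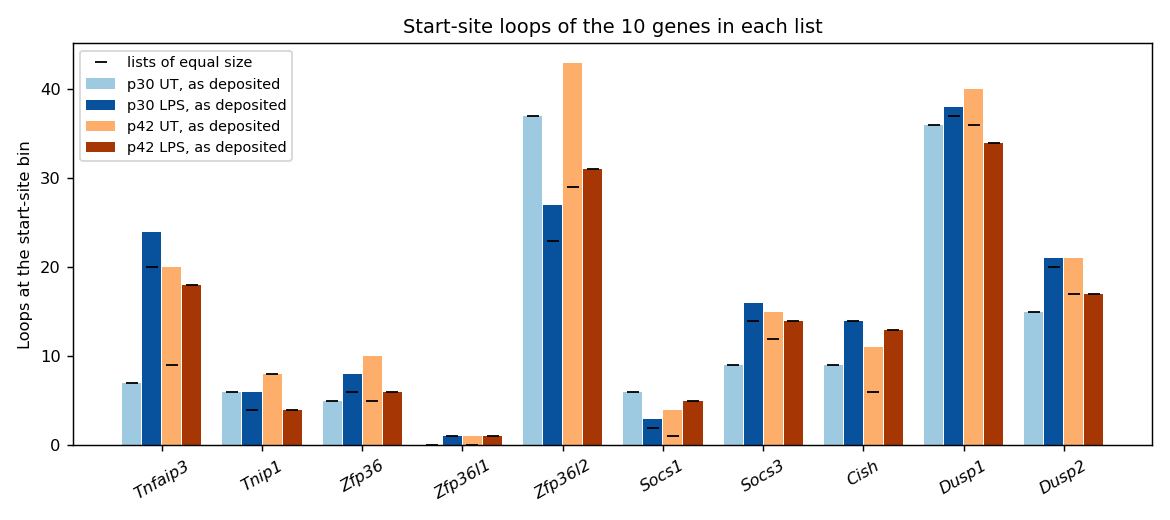
Start-site loops of each gene (vertical axis, number of loops) in the 4 deposited lists (bars) and in lists of equal size (black dashes). Zfp36l2 and Dusp1 have the most loops in every list, and the p42 UT bar of Tnfaip3 falls from 20 to 9 once the lists are cut to equal size.

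Among the NF-kB inhibitors, Tnfaip3 had 7 loops (UT) and 24 (LPS) in p30 and 20 (UT) and 18 (LPS) in p42, and in lists of equal size 7, 20, 9 and 18. Both LPS lists thus held more of its loops than either untreated list at equal size. As deposited, with 1 q-value bound for all lists, p42 UT held more than p42 LPS. Of the 31 distinct loops, 25 lay upstream, and no partner bin held a coding start or lay in a coding gene. The upstream loops lay in a stretch 15 to 105 kb upstream and in another 150 to 225 kb upstream, apart from 1 loop of 660 kb in p30 LPS, and the 6 downstream loops lay 55 to 100 kb away.

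The strongest Tnfaip3 loop in all 4 lists joined the start site to chr10:19060001-19065000, 170 kb upstream. It had 17 contacts (UT) and 36 (LPS) in p30 and 19 (UT) and 33 (LPS) in p42, or 11.5, 22.3, 11.96 and 19.8 times the expected number. Both LPS values lay above both untreated values. The coverage of this partner bin was 0.92, 1.62, 1.03 and 1.58 times the mean of peak bins, in the same order. The bin held a CRE match and 2 overlapping kappa-B matches, motifs found in 4.02% and 36.6% of all 64985 peak bins, in these stretches:
Tnfaip3 partner, CRE (chr10:19061847-19061904, plus strand): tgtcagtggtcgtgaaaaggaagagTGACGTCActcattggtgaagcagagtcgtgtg
Tnfaip3 partner, kappa-B (chr10:19062100-19062159, plus strand): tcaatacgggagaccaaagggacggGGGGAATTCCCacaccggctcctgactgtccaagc
The next loop, to chr10:19045001-19050000 at 155 kb, had 17, 25, 21 and 17 contacts, and there p42 LPS did not exceed p42 UT. A loop of 15 kb to chr10:18905001-18910000 was in both p42 lists, with 28 and 37 contacts, and in neither p30 list. At equal size it was no longer in p42 UT.

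Coverage of the Tnfaip3 start-site bin was 1.26 times the peak mean (UT) and 2.48 (LPS) in p30 and 1.54 (UT) and 2.35 (LPS) in p42. With LPS it was 1.96-fold higher in p30 (95% counting interval 1.88 to 2.05) and 1.52-fold higher in p42 (1.46 to 1.59). The p42 value depends on the scaling: it was 1.22-fold by modelled contacts and 0.984-fold by other bins. Intervals here and below cover counting error only, since PCR products are not independent molecules and no replicate was available.

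Tnip1 had short loops only, from 10 to 30 kb, with 4 partners in its own gene and 3 in exons of Anxa6 upstream. It had 6 loops (UT) and 6 (LPS) in p30 and 8 (UT) and 4 (LPS) in p42. The loop to its own exon at chr11:54825001-54830000, 20 kb downstream, had 26 contacts (UT) and 25 (LPS) in p30 and 57 (UT) and 37 (LPS) in p42. Both p42 values were above both p30 values. The loop to chr11:54860001-54865000, 15 kb upstream, had 53, 48, 47 and 42 contacts, a narrow range. Start-site coverage was 1.99, 1.81, 2.07 and 1.43 times the peak mean.

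The mRNA decay factors differed most among themselves. Zfp36 had few loops, 5 (UT) and 8 (LPS) in p30 and 10 (UT) and 6 (LPS) in p42, but a start-site coverage of 5.48, 5.58, 6.10 and 5.01 times the peak mean, above the 99th percentile of the coding start-site bins in every list. It lies in a gene-dense region, and 6 of its 12 partner bins held a coding start, among them those of Supt5, Rps16, Med29 with Paf1, Samd4b, Gmfg and Pak4. Its strongest loop, 10 kb upstream to an exon of Med29 (chr7:28085001-28090000), had 171, 201, 233 and 181 contacts, or 2.14, 2.72, 2.48 and 2.57 times expected. The loop to an exon of Rps16 (chr7:28050001-28055000, 25 kb) had 32, 33, 34 and 39 contacts. A loop to an intron of Samd4b at chr7:28130001-28135000 was in both p42 lists alone, with 21 and 18 contacts, and at equal size in p42 LPS alone.

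Zfp36l1 had 1 loop in each of p30 LPS, p42 UT and p42 LPS. The p42 loop reached chr12:80170001-80175000, 10 kb upstream, with 35 contacts in UT, where it was not among the loops kept at equal size, and 45 in LPS, and the p30 LPS loop reached the adjacent bin with 23 contacts. Its coverage, where listed, was 0.64, 0.56 and 0.71 times the peak mean. These lay at percentiles 8.19 to 10.1 of coding start-site bins.

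Zfp36l2 was the opposite case, with 37 loops (UT) and 27 (LPS) in p30 and 43 (UT) and 31 (LPS) in p42. Its number of loops lay above the 99.6th percentile of genes with loops in every list. Of 56 distinct loops 42 lay downstream, and 39 spanned over 100 kb. No partner bin held a coding start, and 13 of the 14 upstream partners lay in Thada. The 2 strongest loops in all 4 lists ended in adjacent bins. The first, chr17:84420001-84425000 at 75 kb downstream, had 56, 46, 91 and 84 contacts. The second, chr17:84425001-84430000 at 70 kb, had 60, 49, 93 and 61. In both bins the p42 lists exceeded the p30 lists under either treatment, with 13.98 to 25.1 times the expected contacts in all 4 lists. Coverage at these partners was high, 4.53 to 7.45 times the peak mean, against 1.94 to 2.59 at the start site itself.

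Other Zfp36l2 loops differed more between lists. The loop to chr17:84295001-84300000, 200 kb downstream, had 23 contacts (UT) and 16 (LPS) in p30 and 36 (UT) and 9 (LPS) in p42. The loop to an exon of Thada at chr17:84690001-84695000, 195 kb upstream, had 13, 12, 37 and 18, and the p42 UT value stood apart from the others. A loop to chr17:84170001-84175000, 325 kb downstream, was in both p30 lists alone with 9 contacts each, and 1 to an intron of Thada (chr17:84540001-84545000) was in both p42 lists alone with 24 and 19.

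Among the JAK-STAT inhibitors, Socs1 had the weakest start site. It had 6 loops (UT) and 3 (LPS) in p30 and 4 (UT) and 5 (LPS) in p42, with 7 to 13 contacts each, and coverage of 0.54, 0.55, 0.39 and 0.51 times the peak mean. Of its 9 distinct loops, 8 spanned over 100 kb downstream. The loop in all 4 lists ended in an intron of Clec16a (chr16:10480001-10485000, 120 kb) with 10, 8, 13 and 9 contacts.

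Socs3 had 9 loops (UT) and 16 (LPS) in p30 and 15 (UT) and 14 (LPS) in p42. The 2 strongest in all 4 lists reached Pgs1, its upstream neighbour. The loop to an intron of Pgs1 (chr11:117880001-117885000, 20 kb) had 79, 104, 117 and 90 contacts, and the loop to the Pgs1 start site (chr11:117875001-117880000, 15 kb) had 76, 72, 90 and 78. The intronic bin had the higher coverage of the pair, at 5.03 to 6.56 times the peak mean. Coverage of the Socs3 start-site bin was 1.06 (UT) and 1.72 (LPS) in p30 and 1.08 (UT) and 1.26 (LPS) in p42. It was 1.63-fold higher with LPS in p30 (1.55 to 1.71) and 1.16-fold higher in p42 (1.10 to 1.23). The p42 direction turned with the scaling, to 0.931-fold by modelled contacts and 0.752-fold by other bins.

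Among the 10 genes, Cish held the loop with the highest ratio of observed to expected contacts in every list but p42 UT. There a Dusp1 loop was higher, at 39.8 times the expected number. The Cish loop joined the start site to exons of Hemk1, 40 kb downstream (chr9:107210001-107215000). It had 104 contacts (UT) and 188 (LPS) in p30 and 122 (UT) and 150 (LPS) in p42. These were 28.3, 46.3, 33.7 and 36.0 times the expected number. Both LPS lists lay above both untreated lists in contacts and in ratio. The next bin, chr9:107215001-107220000, which holds the start sites of Hemk1 and 6430571L13Rik, had 42, 68, 48 and 41 contacts, and there p42 LPS did not exceed p42 UT. The bin at 60 kb, chr9:107230001-107235000, carries no H3K27ac peak and had 20, 42, 31 and 36.

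Cish had 9 loops (UT) and 14 (LPS) in p30 and 11 (UT) and 13 (LPS) in p42, and in lists of equal size 9, 14, 6 and 13. Of 18 distinct loops, 14 lay downstream. A loop to chr9:107220001-107225000 was in both p30 lists alone, with 21 and 26 contacts, and 1 to chr9:107120001-107125000 in both p42 lists alone, with 16 and 17. Coverage of the start-site bin was 1.31, 2.32, 1.21 and 1.98 times the peak mean. It was 1.77-fold higher with LPS in p30 (1.69 to 1.85) and 1.64-fold higher in p42 (1.57 to 1.72). The p42 value was 1.31-fold by modelled contacts and 1.06-fold by other bins.

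**Figure D2:**
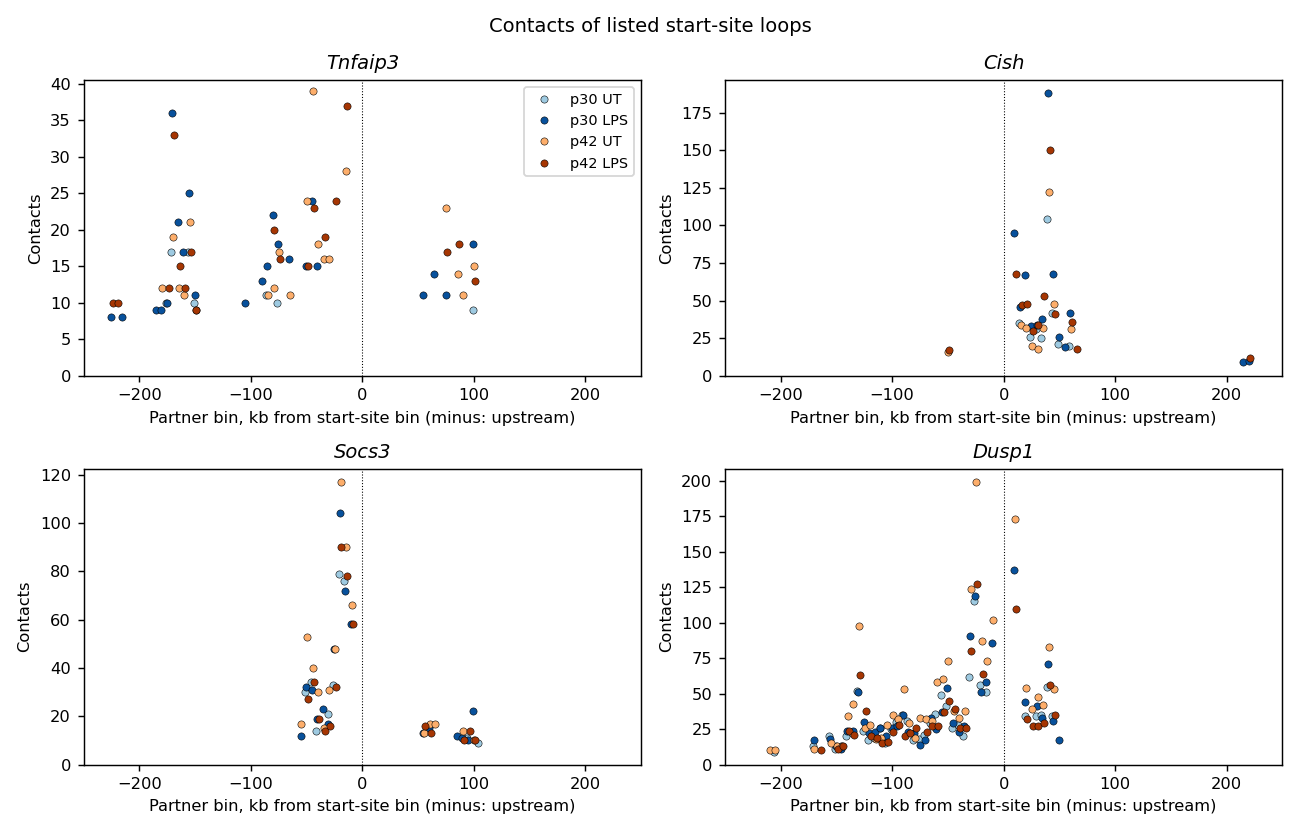
Contacts (vertical axis, linear and scaled to each gene) of the listed start-site loops of Tnfaip3, Cish, Socs3 and Dusp1, by distance of the partner bin from the start-site bin (horizontal axis, kb, minus for upstream, up to 250 kb). Each point is 1 loop in 1 list; the Cish partner 40 kb downstream reaches 188 contacts in p30 LPS, and Dusp1 contacts spread upstream.

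The MAP kinase phosphatases had the most stable loops. Dusp1 had 36 loops (UT) and 38 (LPS) in p30 and 40 (UT) and 34 (LPS) in p42, and 36, 37, 36 and 34 in lists of equal size. Of its 42 distinct loops, 34 ran upstream, through the long annotated Dusp1 locus, which has a further start in another bin, and across Ergic1 to as far as 210 kb. Partner bins held the starts of Ergic1, Atp6v0e and Crebrf. The strongest loop in all 4 lists, chr17:26750001-26755000 at 25 kb, had 115, 119, 199 and 127 contacts. The next, chr17:26755001-26760000 at 30 kb, had 62, 91, 124 and 80, and held a CRE match like the promoter:
Dusp1 partner, CRE (chr17:26757227-26757284, plus strand): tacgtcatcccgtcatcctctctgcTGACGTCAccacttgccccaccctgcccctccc
The loop to an exon of Ergic1, 130 kb upstream (chr17:26855001-26860000), had 52, 51, 98 and 63 contacts, or 23.8, 25.2, 39.8 and 28.3 times expected. In all 3 loops p42 UT had the most contacts. A loop to chr17:26700001-26705000 was in both p42 lists alone, with 39 and 27 contacts. Start-site coverage was 3.83, 4.52, 4.09 and 3.96 times the peak mean.

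All 22 loops of Dusp2 ran upstream, toward Stard7 and beyond. Dusp2 had 15 (UT) and 21 (LPS) in p30 and 21 (UT) and 17 (LPS) in p42. The loop at 10 kb (chr2:127165001-127170000) had 118, 131, 208 and 133 contacts, the loop at 20 kb (chr2:127155001-127160000) 95, 85, 175 and 105, and the loop to exons of Stard7 at 25 kb (chr2:127150001-127155000) 94, 103, 155 and 81. In each of them p42 UT again had the most. The loop to the Stard7 start site, 65 kb away (chr2:127110001-127115000), had 58, 79, 70 and 47 contacts, and p30 LPS led. Start-site coverage was 4.55, 5.47, 5.67 and 4.70 times the peak mean.

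**Figure D3:**
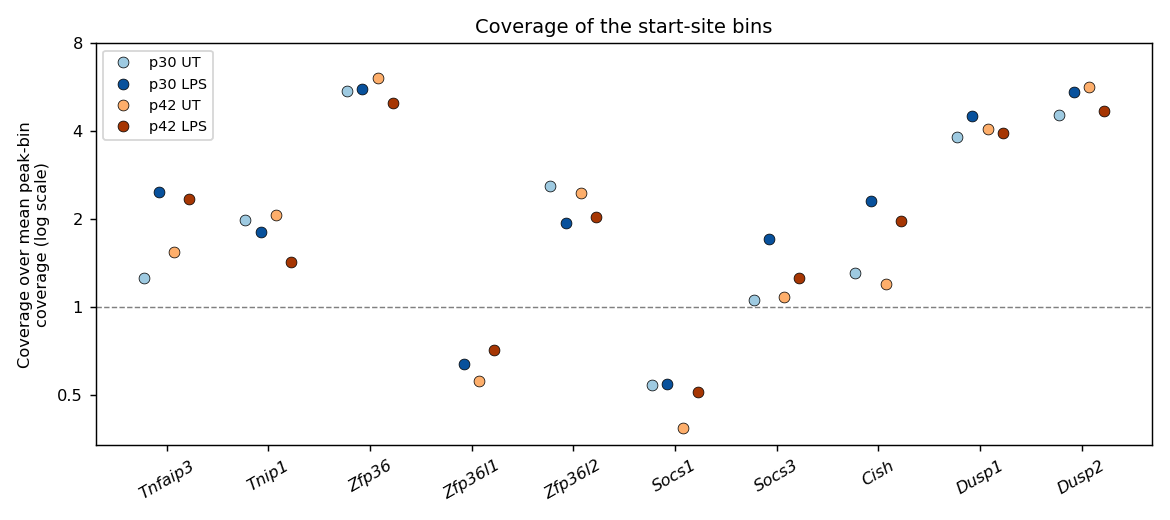
Coverage of the start-site bin of each gene (vertical axis, log scale, ratio to the mean coverage of peak bins of the same list) in the 4 lists. Zfp36, Dusp1 and Dusp2 lie between 3.83 and 6.10, Socs1 and Zfp36l1 below 1, and the LPS points of Tnfaip3 and Cish lie above their untreated points.

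Summed over the loops in all 4 lists, the ratio of observed to expected contacts gives a level per gene that takes coverage and distance into account. Over all 31032 such loops of the series, the median log2 difference in this ratio between LPS and UT was 0.16 in p30 and -0.21 in p42, so a gene higher in p30 and lower in p42 moves with all loops. For the 5 Tnfaip3 loops it was 7.30 (UT) and 11.4 (LPS) in p30 and 8.64 and 8.92 in p42, and for the 7 Cish loops 6.97 and 9.22 in p30 and 7.74 and 8.57 in p42. In p30 the share of contacts in the LPS list lay above the share expected for both genes, at 63.2% (95% Wilson interval 55.7 to 70.0) against 52.3% for Tnfaip3 and 61.3% (57.8 to 64.8) against 54.5% for Cish. In p42 neither gap exceeded counting error, at 52.1% (44.6 to 59.5) against 51.3% and 56.2% (52.5 to 59.8) against 53.7%. Both gaps were taken against the expected share of the gene, and not against all loops, which moved down in p42. Tested below against the median ratio of all loops, the Cish loops at 35 and 40 kb had more contacts with LPS in p42. For the 7 Socs3 loops the ratio was 5.41, 5.77, 6.77 and 5.68; the p30 gap did not exceed counting error (53.0%, 49.0 to 56.9, against 51.3%), and in p42 the LPS value was the lower, the direction of all loops (41.99%, 38.4 to 45.7, against 46.3%). For the 31 Dusp1 loops the ratio was 6.25, 7.72, 8.18 and 6.69, and for the 15 Dusp2 loops 3.93, 5.00, 4.99 and 4.39, both higher in p30 and lower in p42 with LPS, the direction of all loops. For the 16 Zfp36l2 loops it was 9.89, 10.3, 13.5 and 11.2, and both p42 values lay above both p30 values.

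LPS in p30 cells was first compared with no treatment. Coverage at the start sites of Tnfaip3, Cish and Socs3 was higher by at least 1.5-fold, so 3 of 9 genes passed this bound, against 1.92% of the 6394 start-site bins listed on both sides. No gene was lower by that factor, against 0.36% of bins. The median log2 difference was 0.24 over the 9 genes and 0.04 over all bins. A gene was counted as having more or fewer loops when its counts differed at least 1.5-fold and by at least 3 loops in lists of equal size. Tnfaip3 (7 to 20), Socs3 (9 to 14) and Cish (9 to 14) had more by this rule, which 8.4% of genes met, and Zfp36l2 (37 to 23) and Socs1 (6 to 2) had fewer, as did 6.32% of genes. In the lists as deposited the Zfp36l2 difference, 37 against 27, no longer met the rule, and Zfp36 (5 to 8) did. All coding genes together then had 1.22 times as many start-site loops with LPS. The share of genes meeting the rule was counted at equal size only, so calls under other settings, here and below, lack one. With both adjacent bins the calls of Cish (29 to 40) and Zfp36l2 (76 to 54) were lost.

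Contacts were tested on the 86 loops in all 4 lists by a two-sided exact binomial test for each loop, with the share of modelled contacts as the null and Benjamini-Hochberg adjustment over all 31032 loops in all 4 lists. Like the intervals, these p-values cover counting error only and compare pooled libraries, not conditions. In p30, 7 of the 86 loops had more contacts after LPS and 0 had fewer, against 3.89% and 0.0387% of all loops. By the exact test they were the Cish loops at 40 kb (log2 ratio 1.16, adjusted p = 3.12e-08), 45 kb (1.00, adjusted p = 0.0161) and 60 kb (1.38, adjusted p = 0.0143), the Tnfaip3 loop at 170 kb (1.39, adjusted p = 0.0273), the Socs3 loop at 20 kb (0.71, adjusted p = 0.0330), the Dusp1 loop at 30 kb (0.86, adjusted p = 0.0150) and the Zfp36 loop at 10 kb (0.54, adjusted p = 0.0148). Of the 86 loops, 75 had a ratio above 0. The median ratio of all loops was itself 0.25. With that median, or with the expected contacts, as the null of the exact test, the Cish loop at 40 kb was the 1 call that remained (adjusted p = 0.000227 and 0.0435), against 0.496% and 0.135% of all loops.

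**Figure D4:**
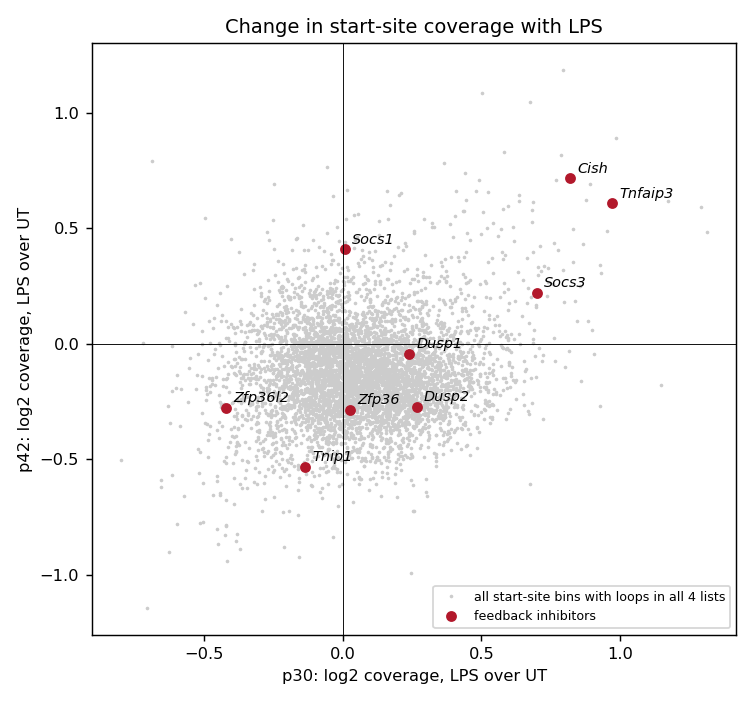
Change in start-site coverage with LPS in p30 (horizontal axis) and p42 (vertical axis), both as log2 of LPS over UT of coverage relative to peak bins. Grey points are all coding start-site bins with loops in all 4 lists and red points the 9 feedback inhibitors listed in all 4; Tnfaip3 and Cish lie at the upper right, with 0.97 and 0.82 in p30 and 0.61 and 0.72 in p42.

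In p42 cells the same comparison gave 2 genes past 1.5-fold in coverage, Cish and Tnfaip3, against 0.743% of 6592 bins, and 0 genes lower, against 1.09%. The median log2 difference was 0.09 over the 10 genes and -0.13 over all bins. Divided by the median of all bins, the difference was 1.80-fold for Cish, 1.67-fold for Tnfaip3, 1.46-fold for Socs1, 1.39-fold for Zfp36l1 and 1.28-fold for Socs3. These calls depend on the scaling: with coverage divided by modelled contacts, 0 genes were higher and 4 lower, against 0.0758% and 23.6% of all bins, whose median moved to -0.46. Tnfaip3 (9 to 18 loops), Cish (6 to 13) and Socs1 (1 to 5) had more loops at equal size, as had 3.92% of genes, and Tnip1 (8 to 4) had fewer, as had 9.36%. In the lists as deposited, of which p42 UT was the longest, 0 genes had more and 2 had fewer (Tnip1 and Zfp36). All coding genes together then had 0.491 times as many start-site loops with LPS, and the 10 genes 0.827 times. The share of genes called was not counted in that setting. With both adjacent bins the calls of Cish (26 to 38) and Tnip1 (20 to 16) were lost, the latter also with the starts of any coding transcript (15 to 11).

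Of the 86 shared loops, 1 had more contacts after LPS in p42, the Cish loop at 40 kb (log2 ratio 0.56, adjusted p = 0.0437 by the exact binomial test). With the expected contacts as the null, and over the loops of both p42 lists or of 20 kb or more, it was not called. With the median ratio as the null, 2 loops had more contacts, against 0.200% of all loops. They were this loop (adjusted p = 0.00290 by the exact test) and Cish at 35 kb (53 against 32, adjusted p = 0.0244). The Zfp36l2 loop at 200 kb (-1.74, adjusted p = 0.0204) and the Dusp2 loop at 25 kb (-0.67, adjusted p = 0.0253) had fewer by the exact test, and neither was called with the expected contacts or the median ratio as the null. Of all loops, 0.087% had more and 3.58% fewer, with a median of -0.24.

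Between isoforms, untreated cells showed no difference in start-site coverage past 1.5-fold for any of 9 genes, against 3.72% of 6849 bins higher and 1.43% lower in p42. The largest ratios were 1.25-fold higher in p42 for Dusp2 and 1.22-fold for Tnfaip3, and 0.712-fold for Socs1. Scaled by other bins 7 genes were past 1.5-fold higher in p42, against 72.2% of bins, and scaled by the median of start-site bins 1, Socs1, was lower, against 3.01%. At equal size no gene had more loops in p42 (10.2% of genes did), and Socs1 (6 in p30, 1 in p42) and Cish (9 and 6) had fewer (6.03%). The Cish call was lost with both adjacent bins (26 in p42, 29 in p30) and over loops of 20 kb or more (6 and 8). With both adjacent bins Tnip1 had more in p42 (20 and 13), and with the starts of any coding transcript so did Tnip1 (15 and 10) and Tnfaip3 (15 and 8). The share of all genes called was not counted in these settings. As deposited, when the p42 UT list was the longer, Tnfaip3, Zfp36 and Socs3 had more and none had fewer. In those lists all coding genes together had 1.91 times as many start-site loops in p42, and the 10 genes 1.33 times. More loops in p42 was thus the direction of all genes.

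Contacts of 8 of the 86 loops were higher in p42 UT than in p30 UT and 0 were lower, against 10.7% and 0.126% of all loops (8 of 86 is near that background). They were 3 Dusp2 loops at 10, 20 and 25 kb (log2 ratios 0.74, 0.80 and 0.64), 3 Dusp1 loops at 25, 30 and 130 kb (0.71, 0.92 and 0.83), the Tnip1 loop at 20 kb (1.05, adjusted p = 0.0241 by the exact binomial test) and the Zfp36l2 loop at 195 kb (1.43, adjusted p = 0.0210). The median ratio of all loops was 0.31. With the expected contacts as the null, 3 calls remained (Dusp1 at 30 kb, Dusp2 at 10 and 20 kb), against 1.40% of all loops, and with the median ratio 0 remained, against 2.00%.

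After LPS the isoforms again did not differ past 1.5-fold in coverage at any of the 10 start sites, against 1.79% of 6135 bins higher and 3.72% lower in p42. The lowest ratio was 0.736-fold for Socs3 (0.699 to 0.774). All 10 genes were lower in p42 when coverage was divided by modelled contacts or by other bins: 2 were past 1.5-fold lower by the former, against 29.3% of bins, and 6 by the latter, against 49.0%; relative to the median of start-site bins none was. Socs1 had more loops in p42 (5 against 2 at equal size), as had 6.17% of genes, and no gene had fewer, as had 10.9%. As deposited, Socs1 had 5 against 3 and no gene met the rule. All coding genes together then had 0.770 times as many start-site loops in p42.

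Of the 86 loops, 0 had more contacts in p42 LPS than in p30 LPS and 1 had fewer, against 0.267% and 2.35% of all loops. It was the Dusp2 loop to the Stard7 start (log2 ratio -0.88, adjusted p = 0.0394 by the exact binomial test). It was not called in any of the 4 alternative settings. With the median ratio of all loops as the null, 1 loop had more contacts in p42, against 0.429% of all loops. It was the Zfp36l2 loop at 75 kb (84 against 46, adjusted p = 0.0421 by the exact test). The 4 comparisons share lists with each other, so their calls are not independent.

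**Figure D5:**
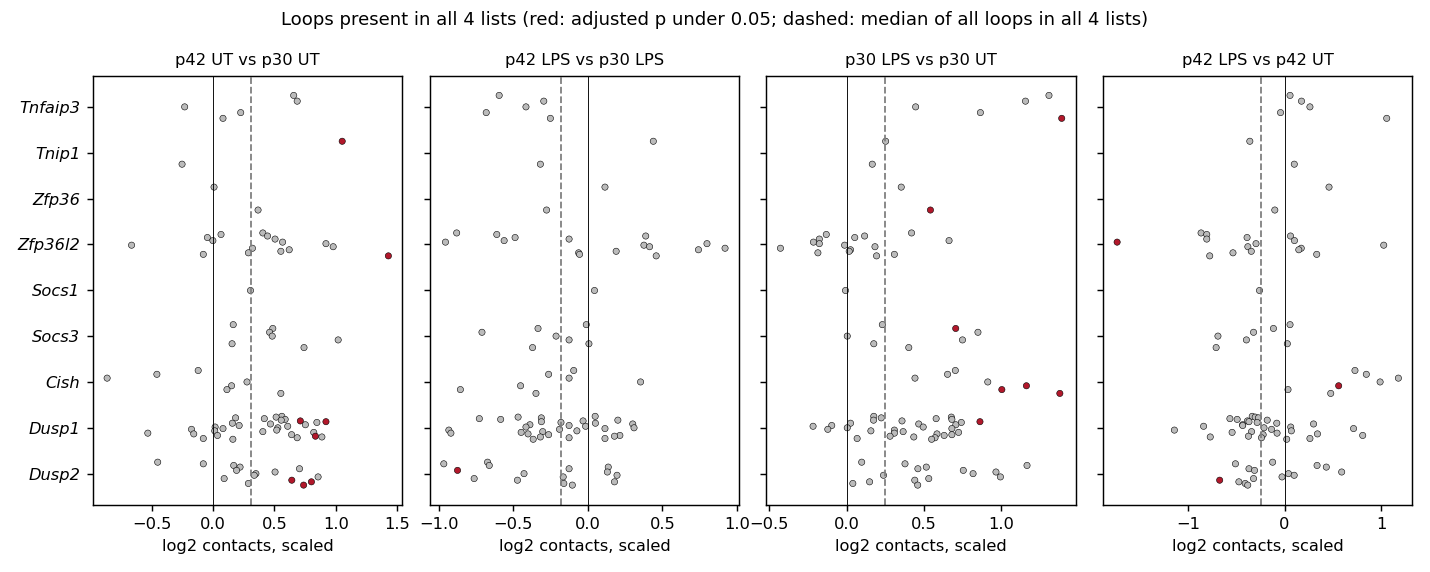
Log2 ratio of contacts, scaled to modelled contacts (horizontal axis), of the 86 loops in all 4 lists, by gene, in the 4 comparisons; each point is 1 loop, red where the adjusted p is under 0.05. Dashed lines mark the median of all 31032 loops (0.31, -0.18, 0.25 and -0.24 from left to right), and most red points lie on the same side of 0 as that line.

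Other genes that restrain the same pathways were counted for comparison. Of 42 such genes, 35 had a start-site loop in any list and 23 in all 4, against 10513 and 6331 of 21751 coding genes. Counts of loops below are over those 35. With LPS in p30, 6 had more loops at equal size and 2 fewer, against 8.4% and 6.32% of genes, and 2 of 27 had coverage past 1.5-fold higher, Otulin (log2 0.64) and Dusp16 (0.76), against 1.92% of bins. With LPS in p42 the counts were 1 and 3, against 3.92% and 9.36%, and 1 of 25 in coverage, Irak3 (0.62), against 0.743%. Between isoforms, 4 had more and 1 fewer in p42 when untreated, against 10.2% and 6.03%, and 3 more and 3 fewer after LPS, against 6.17% and 10.9%. Coverage was past 1.5-fold higher in p42 for 3 of 27 when untreated, Nfkbia (log2 0.84), Irak3 (0.83) and Dusp16 (0.59), against 3.72% of bins, and for 1 of 25 after LPS, Irak3 (1.01), against 1.79%. Nfkbia, which encodes the NF-kB inhibitor IkB-alpha, had 9 loops at equal size (UT) and 19 (LPS) in p30 and 17 (UT) and 20 (LPS) in p42. Ptpn2, a phosphatase of JAK kinases, had 2, 7, 9 and 7, and Dusp16 had 2, 10, 10 and 7. In these 3 genes p30 UT was the lowest list. They were named because both comparisons with p30 UT called them, so the low p30 UT count is part of that choice. Otud7b had 2, 7, 5 and 2, Rc3h2 had 1, 5, 3 and 0, N4bp1 had 0, 1, 0 and 4, and Dusp7 had 6, 2, 4 and 5. As a check of the cell type, all 10 markers of haematopoietic progenitors, such as Kit, Gata2 and Runx1, had start-site loops in all 4 lists. Of all 21751 coding genes, 6331 had them.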

How the data were processed

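The members and gene lists were chosen with earlier results of these data known. Per the study's methods, reads were mapped to mm39 (GRCm39) with BWA (version 0.7.17 in the submitters' processing notes), ligation products were recorded and duplicates removed with pairtools, and loops were called with FitHiChIP; the deposited lists have 5 kb bins and q-values under 0.01, and how replicates were pooled was not stated. Contacts deposited by the authors are raw counts, and deposited coverage is a raw read count per bin. The deposited expected count is the caller's estimated count, the deposited contact probability is a fraction of modelled contacts, the deposited coverage bias is a ratio to the mean of its class of bins, and the deposited q-value is the caller's. Listing only significant pairs, after correction for coverage, means that a lost loop may be one that fell just under the threshold.

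Modelled contacts were obtained by dividing the expected count by the probability, and mean peak-bin coverage as coverage over bias. Groups came from the labels. Canonical starts of 21751 protein-coding genes were taken from GENCODE. Named were all 10 genes; of their loops, the 2 with most contacts in all 4 lists, those called in the contact test, and the strongest in both lists of 1 isoform alone; and other pathway genes called in 2 or more loop comparisons. No test was made of loop counts or coverage, since each group is 1 list. The contact test has the same limit, and its p-values cover counting error only. Python 3.11.15, pandas 2.3.3 and scipy 1.17.1 were used; intervals are at 95%. The scripts' test was checked on simulated data. Alternatives changed the lists, window, q-value, distance, coverage scaling and null of the contact test. Markers of other lineages are not reported here.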

Additional observations from a re-analysis of the deposited data

Results flagged for a closer look

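A total of 6 measures moved in opposite directions with LPS in p30 and p42. These differences between isoforms were not tested, since each group is 1 list. The share of all genes with opposite directions was not counted. Over all start-site bins the median log2 coverage difference was 0.04 in p30 and -0.13 in p42. At equal size the start-site loops of all coding genes were 1.06 times as many with LPS in p30 and 0.902 times in p42. The coverage measures and the Dusp1 loops below moved the way all genes did, and the Zfp36l2 and Socs1 loops the other way. Start-site coverage (log2 of LPS over UT) was 0.27 in p30 and -0.27 in p42 for Dusp2, a difference of -0.54. It was 0.03 and -0.29 for Zfp36, a difference of -0.31, and 0.24 and -0.04 for Dusp1, a difference of -0.28. With coverage scaled by the median of the start-site bins in all 4 lists, Dusp2 was still opposite in sign (0.21 and -0.13), while Zfp36 (-0.03 and -0.14) and Dusp1 (0.18 and 0.10) were not. In lists of equal size, Zfp36l2 had 14 fewer loops with LPS in p30 and 2 more in p42, a difference of 16. As deposited it had fewer in both isoforms (37 to 27 and 43 to 31), and with both adjacent bins the changes were -22 and -1. The opposite direction was not kept in these settings. It was kept with the starts of any coding transcript (-14 and 2) and over loops of 20 kb or more (-14 and 1). Socs1 had 4 fewer in p30 and 4 more in p42, a difference of 8, and the directions were opposite as deposited too (-3 and 1). Dusp1 had 1 more in p30 and 2 fewer in p42, a difference of -3; as deposited the changes were 2 and -6, and over loops of 20 kb or more -1 and -1.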

How the results depend on the processing

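No paired analysis was possible because the deposited lists pool both replicates of a group, although the labels number them; for the same reason leaving out a replicate could not be run. Of 80 alternative values, 49 stayed within their range and 31 moved, some of them to the other direction, as the values below show. The number of start-site loops of the 10 genes in p42 UT over p30 UT was 0.946 at equal size (1.06 over all genes), 1.33 in the lists as deposited (1.91), 1.37 at q under 0.001 and 1.53 at q under 1e-05. For p42 LPS over p42 UT it was 1.16 at equal size (0.902 over all genes), and 0.827 (0.491 over all genes), 0.848 and 0.767 under the same settings. Scaled by other bins, 7 genes had higher coverage in p42 UT than in p30 UT (72.2% of all start-site bins did), 6 lower in p42 LPS than in p30 LPS (49.0%), 5 higher with LPS in p30 (47.1%), and 0 higher and 5 lower with LPS in p42 (0% and 81.3%). Scaled by modelled contacts, 2 were lower in p42 LPS than in p30 LPS (29.3% of bins), and 0 higher and 4 lower with LPS in p42 (0.0758% and 23.6%). Scaled by the median of start-site bins, 1 (Socs1) was lower in p42 UT than in p30 UT (3.01%). In the contact test, the null from expected counts left 3 loops with more in p42 UT than in p30 UT (1.40% of all loops). It left 0 with fewer in p42 LPS than in p30 LPS (0.0677%) and 1 with more after LPS in p30 (0.135%). After LPS in p42 it left 0 with more and 0 with fewer (0% and 0.274%). The null from the median ratio left 0 with more in p42 UT than in p30 UT (2.00%). It left 1 with more and 0 with fewer in p42 LPS than in p30 LPS (0.429% and 0.628%). With LPS it left 1 with more in p30 (0.496%), and 2 with more and 0 with fewer in p42 (0.200% and 0.416%). Over loops in both lists of a comparison, 0 had fewer in p42 LPS than in p30 LPS (1.37% of all such loops). There, 0 had more after LPS in p42 (0.0384%). Over loops of 20 kb or more the same 2 counts were 0 (0.559% and 0.0231%), and 4 had more after LPS in p30 (1.12%). The cause of these shifts was not tested. Loops with under 20 contacts, as at Socs1, limit what the test can find.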

Other observations

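The bin upstream of the start-site bin of Zfp36 was covered more deeply than the start-site bin itself, in all 4 lists. It reached 8.56 (UT) and 10.0 (LPS) times the peak mean in p30 and 8.52 and 7.15 in p42, with 12, 11, 15 and 8 loops. The downstream neighbour was lower than the start-site bin in all 4 lists, at 4.18, 5.39, 4.53 and 3.66. Around Socs3 the upstream neighbour was at 0.99, 1.63, 1.12 and 1.33 times the peak mean and the downstream neighbour at 1.28, 1.86, 1.43 and 1.35, in the same order. With LPS both were higher in p30, and in p42 the upstream neighbour was higher and the downstream neighbour lower. Around Tnfaip3 the upstream neighbour was at 0.88, 1.55, 1.04 and 1.56, so that both LPS lists lay above both untreated lists there too. Of the 86 partner bins of the loops in all 4 lists, 44 held a kappa-B match (51.2%, against 36.6% of all peak bins), 61 an AP-1 match (70.9% against 77.4%), 7 a CRE match (8.14% against 4.02%) and 7 a CEBP-ATF match (8.14% against 11.6%). These shares were not tested, and neighbouring partner bins are not independent.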
